A study of Homo sapiens with 46 samples.

Results

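RNA held on chromatin was compared with RNA of the cytoplasm in endoderm cells made in culture from H1, a long-established line of human pluripotent stem cells (hPSC). The comparison rests on 6 of the series' 46 libraries, 3 of endoderm chromatin and 3 of endoderm cytoplasm. They were chosen by the cell type and fraction in their titles, and no measured value entered that choice. For endoderm, H1 cells were grown in RPMI with 0.5% FBS, WNT3A and Activin A, and were collected after 5 days. The hPSC used as a second setting were the same line kept in mTeSR1 on Matrigel. Neither group carries a transgene or a deletion in its labels, and α-amanitin was present in the fractionation buffers of both. The series' design text speaks of actinomycin D, a blocker of transcription, but the labels of these libraries do not name it, and whether these cells received it is not settled here. The cytoplasm was what a mild NP-40 lysis released above a sucrose cushion. The nuclei below it were then opened with NP-40 and urea, which left a soluble nucleoplasm and a chromatin pellet. Each library is a bulk sample of a single line, so fewer cells of a type and less RNA per cell cannot be told apart. The labels number the replicates without saying that they came from separate cultures, and the p-values measure only the spread between these libraries.

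In untreated cells, chromatin holds RNA that is still being transcribed, much of it not fully spliced, together with long noncoding RNAs (lncRNAs) that act where they are made. The cytoplasm holds mRNA that has been spliced, exported and, for the most part, bound by ribosomes. Messages for secreted and membrane proteins are translated on the endoplasmic reticulum (ER), whose membrane is continuous with the outer nuclear envelope, and messages encoded by mitochondrial DNA are made and translated inside mitochondria.

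The chromatin libraries held 12316044, 7899619 and 11751281 counts, and the cytoplasm libraries 18360084, 16443886 and 15955662. Levels are given as CPM, counts scaled to a common total over Ensembl genes, and a count of 0 allows a level of up to 3 counts, or 0.167 to 0.397 CPM, which covers counting error only. Across genes, chromatin replicates correlated with each other at r = 0.969 to 0.977 and cytoplasm replicates at 0.984 to 0.989, against 0.742 to 0.767 between the fractions. Of 10 endoderm markers, all 10 were listed, with a summed level of 338 to 437 CPM in chromatin and 472 to 639 CPM in the cytoplasm. The 5 markers of undifferentiated cells that were measured summed to 596 to 630 CPM in chromatin and to 2232 to 2867 CPM in the cytoplasm, so RNA of both programmes was present. The 2 ectoderm markers measured summed to at most 4.89 CPM, while 5 mesoderm markers summed to 129 to 173 CPM in chromatin and 76.8 to 101 CPM in the cytoplasm. What part cells of other types had in the values was not tested. Whether rRNA was depleted or polyA RNA selected is not given in the sources used here, which limits what the values of rRNA, snoRNA, histone and unspliced RNA measure.

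Most of the transcriptome differed between the fractions. Of 12681 genes tested, 9253 (73%) were called, meaning an adjusted p under 0.05 in edgeR's quasi-likelihood test with Benjamini-Hochberg adjustment. Of these, 4780 (37.7% of the genes tested) were higher in chromatin and 4473 (35.3%) were lower, and 10092 genes (79.6%) had no overlap between the 3 chromatin and the 3 cytoplasm libraries. The median log2 change over all genes, chromatin minus cytoplasm, was 0.05, and 6658 genes (52.5%) were called with at least a 2-fold change. Counts of list members below are to be read against these shares. Higher in chromatin means a larger part of a chromatin library's counts after scaling. No amount of RNA per fraction entered the fits, so the values do not say which fraction held more molecules of a gene. Scaling by total counts moved the median by -0.13 and a fit on TPM by 0.32. The median of every list named below kept its sign under each setting run, except where a reversal is given.

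**Figure D1:**
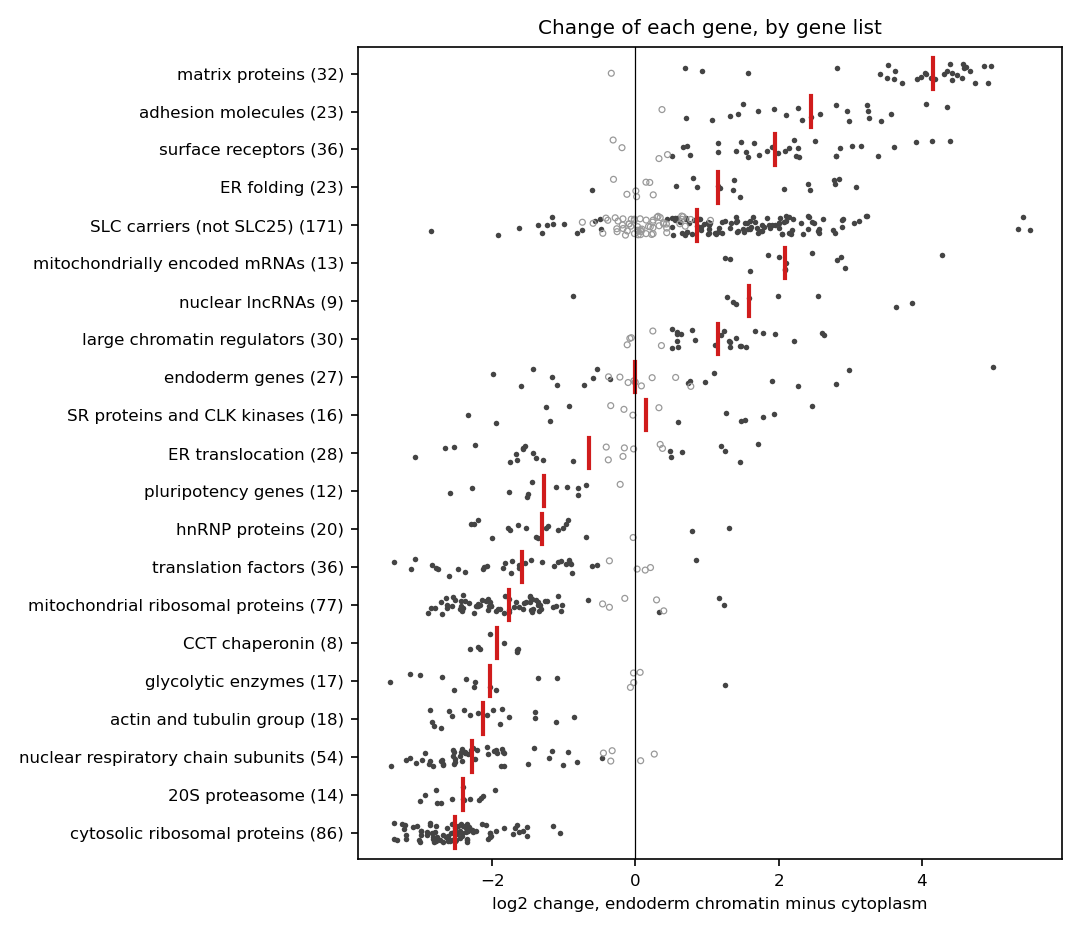
Log2 change of each tested gene, endoderm chromatin minus cytoplasm, by gene list; filled points were called, open points were not, red bars are list medians, and the number of genes is in parentheses. Matrix protein genes have the highest median (4.15) and the 86 cytosolic ribosomal protein genes, all lower in chromatin, the lowest (-2.52) among the 21 lists plotted.

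The steepest rise in chromatin belonged to a noncoding feature in the ribosomal DNA, the template of ribosomal RNA. ENSG00000273739, annotated in GENCODE 29 as a miscellaneous RNA of 90 bases on the hg38 scaffold KI270733.1 at 122136 to 122225, lies 6651 bases before a 5.8S rRNA gene copy (ENSG00000276700). Its level was 10669, 13305 and 12719.8 CPM in the chromatin libraries and 16.1, 26.1 and 24.9 CPM in the cytoplasm libraries, a log2 change of 9.22 (SE 0.80, adjusted p = 8.11e-08). All chromatin libraries stood far above all cytoplasm libraries. The counts are of transcripts assembled from the reads, so the RNA counted may be longer than the annotated 90 bases. Another 5.8S rRNA gene copy (ENSG00000275757), whose counts cannot be divided between precursor and mature rRNA, overlapped between the fractions: 5_8S_rRNA stood at 11527, 8930.0 and 16259 CPM in chromatin and 7509.9, 9425 and 6747 CPM in the cytoplasm (log2 change 0.76, adjusted p = 0.272), though it was called in fits of the 6 libraries alone (0.71) or without the nucleus libraries (0.66). It was picked for this contrast after its values were seen. Rises and falls were ranked among called genes with a mean of at least 10 CPM in the higher fraction and no overlap between fractions. Among the other 11 steepest rises, ENSG00000281181 and ENSG00000280800 form a set of 3 with ENSG00000280614, which was lower in chromatin. The GENCODE 29 transcripts of the 3 genes are identical over 923 bases. Whether the assembled transcripts that were counted are identical was not tested. Reads of identical stretches cannot be divided between the copies, so their single values are uncertain. Their sum was 2548, 2478 and 5282 CPM in chromatin and 7596, 14309 and 11764 CPM in the cytoplasm, lower in every chromatin library.

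Other steep rises were transcripts at low cytoplasm levels. IZUMO4, which encodes a sperm-egg fusion family protein, stood at 12.4, 9.13 and 12.6 CPM in chromatin and 0.0556, 0 and 0.320 CPM in the cytoplasm, a log2 change of 6.55 (SE 0.60, adjusted p = 1.55e-07). The lncRNA DIO3OS stood at 127, 135 and 156 against 2.11, 1.82 and 1.03 CPM (log2 change 6.50). EVX1-AS, a lncRNA beside the EVX1 gene of the primitive streak, stood at 77.1, 82.7 and 102 against 2.23, 1.44 and 0.769 CPM (log2 change 5.98). Their groups did not overlap. LMNTD2-AS1 (6.46), CCDC183 (6.06), MIR5692B (5.67), MIR6859-3 (5.66), ENSG00000290657 (6.70) and ENSG00000284294 (5.64) completed the 12 steepest rises, each given as its log2 change. The deposited tables do not say whether strand was used in counting, so reads from an antisense gene and from its partner cannot be told apart.

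The 12 steepest falls by that ranking, which leaves out genes of lower level, were mostly coding. S100A11, a small calcium-binding protein, stood at 22.3, 25.0 and 20.7 CPM in chromatin and 344, 269 and 323 CPM in the cytoplasm (log2 change -3.65, SE 0.23, adjusted p = 3.56e-09). FTH1, the ferritin heavy chain that stores iron, stood at 138, 126 and 126 against 1468, 1424 and 1551 CPM (log2 change -3.38). PFDN2, a subunit of the prefoldin chaperone, stood at 4.43, 2.91 and 5.16 against 49.9, 42.5 and 58.4 CPM (log2 change -3.44). In each of these the lowest cytoplasm library exceeded the highest chromatin library. RPPH1, the RNA of ribonuclease P, was lower in chromatin (1.36, 0.132 and 1.36 against 15.2, 13.9 and 10.7 CPM, log2 change -3.57), and so were SH3BGRL3 (-3.49), RPL36AL (-3.44), COMMD10 (-3.40), LDHA (-3.42), UQCRH (-3.41), ENSG00000279483 (-5.34) and the pseudogene RPL41P5 (-3.97). U2AF1, a splice-site recognition factor, had 0 counts in all 3 chromatin libraries against 10.2, 11.3 and 16.5 CPM in the cytoplasm, at least 41.1-fold higher in the cytoplasm when chromatin is set at its floor of 3 counts per library. U2AF1 has near-identical copies in the genome, so this value is uncertain.

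LncRNAs known to work in the nucleus were mostly higher in chromatin. Of 9 tested, 8 were called higher and 1 lower, with a median log2 change of 1.58. MALAT1, a lncRNA of nuclear speckles, stood at 466, 432 and 514 CPM in chromatin and 117, 176 and 95.5 CPM in the cytoplasm (log2 change 1.99, SE 0.47, adjusted p = 0.00145). FTX, which lies in the X-inactivation centre, stood at 278, 209 and 278 against 20.5, 20.4 and 16.7 CPM (log2 change 3.86, SE 0.33, adjusted p = 6.80e-08). KCNQ1OT1, which silences an imprinted domain, stood at 9.36, 11.1 and 9.32 against 1.00, 1.07 and 0.513 CPM (log2 change 3.63, SE 0.46, adjusted p = 4.10e-06). The groups of these 3 genes did not overlap. MEG3 (2.55), JPX (1.58), TUG1 (1.40), SNHG14 (1.36) and PVT1 (1.28) were higher by smaller log2 changes. The exception was CHASERR, a regulator of the neighbouring CHD2 gene, with 16.9, 13.5 and 12.2 CPM in chromatin and 25.5, 31.0 and 29.1 CPM in the cytoplasm (log2 change -0.87, SE 0.21, adjusted p = 0.0019), a call that was lost on TPM (-0.50).

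The lncRNAs of cytoplasmic or mixed location lay more to the other side. Of 5 tested, ESRG (-1.53), DANCR (-1.28) and CYTOR (-2.16) were called lower in chromatin. NORAD, a decoy for PUMILIO proteins in the cytoplasm, stood at 231, 229 and 244 CPM in chromatin and 458, 432 and 327 CPM in the cytoplasm and missed the threshold (log2 change -0.66, adjusted p = 0.0686), as did OIP5-AS1 (-0.26, adjusted p = 0.402); both were called lower in a fit of the 6 libraries alone (-0.71 and -0.31). The lncRNA class as a whole leaned to chromatin: of 760 tested, 382 were higher and 122 lower, with a median log2 change of 0.98.

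Host transcripts of small RNAs went both ways. Small nucleolar RNAs (snoRNAs) guide modification of ribosomal RNA and are cut from introns of their hosts. Of 14 host transcripts, 5 were higher in chromatin (SNHG1, TAF1D, SNHG15, SNHG17 and GAS5) and 6 lower (SNHG29, SNHG16, ZFAS1, SNHG6, SNHG32 and SNHG5). SNHG1 stood at 625, 657 and 637 CPM in chromatin and 76.7, 108 and 121 CPM in the cytoplasm (log2 change 2.78, SE 0.22, adjusted p = 2.62e-08). SNHG29 stood at 63.2, 51.9 and 61.4 against 353, 326 and 373 CPM (log2 change -2.45, SE 0.15, adjusted p = 2.57e-09). The chromatin libraries were all above the cytoplasm libraries in SNHG1 and all below them in SNHG29. GAS5 stood at 482, 412 and 437 against 179.7, 207 and 236 CPM (1.22, SE 0.28, adjusted p = 0.00108), a call that was lost on TPM (0.11). Features annotated as snoRNAs were higher in chromatin in all 13 tested (median log2 change 3.15), and those annotated as miRNAs in 32 of 37, with 1 lower (median 3.82). These short features lie inside longer genes, and reads of a host intron and of the small RNA itself cannot be told apart here.

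All 3 measured host genes of microRNAs were higher in chromatin. MIR302CHG, the host of the miR-302/367 cluster of pluripotent cells, stood at 2387, 1738 and 1952 CPM in chromatin and 197, 203 and 169 CPM in the cytoplasm, a log2 change of 3.55 (SE 0.35, adjusted p = 3.02e-07). MIR22HG stood at 20.3, 28.8 and 29.8 against 6.68, 5.84 and 5.25 CPM (log2 change 2.27, SE 0.25, adjusted p = 1.07e-06). MCM7, a helicase subunit whose intron holds the miR-106b/25 cluster, stood at 603, 668 and 636 against 421, 453 and 521 CPM (log2 change 0.58, SE 0.14, adjusted p = 0.00157). None of the groups overlapped. The mature miRNAs carried by these hosts are shown from RefSeq (GRCh38.p14), since they are what the host transcripts are processed to; capitals mark the seed, bases 2 to 8, which pairs with targets, and the deposited values do not measure the mature forms.
hsa-miR-302a-3p: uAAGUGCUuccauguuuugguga
hsa-miR-302b-3p: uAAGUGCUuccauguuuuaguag
hsa-miR-302c-3p: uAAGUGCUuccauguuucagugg
hsa-miR-302d-3p: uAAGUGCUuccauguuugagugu
hsa-miR-367-3p: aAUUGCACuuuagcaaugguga
hsa-miR-106b-5p: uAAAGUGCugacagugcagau
hsa-miR-93-5p: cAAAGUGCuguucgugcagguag
hsa-miR-25-3p: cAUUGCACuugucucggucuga
hsa-miR-22-3p: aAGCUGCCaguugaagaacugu
The 4 miR-302 sequences share the seed AAGUGCU, miR-106b and miR-93 share AAAGUGC, and miR-367 of MIR302CHG and miR-25 of MCM7 share AUUGCAC. MIR302CHG lies on chromosome 4 and MCM7 on chromosome 7.

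Messages for proteins of the extracellular matrix had the highest median of the gene lists examined. Of 32 tested, 31 were higher in chromatin and 1, the proteoglycan LUM, was not called (-0.34), and the median log2 change was 4.15. FN1, a matrix protein too but kept with the endoderm genes and not counted in this list, is the fibronectin gene on chromosome 2 (ENSG00000115414). It stood at 32350.3, 38959 and 28014 CPM in chromatin and 1323, 1081 and 1034 CPM in the cytoplasm (log2 change 4.99, SE 0.30, adjusted p = 2.65e-09). FN1 alone took 3.15% ± 0.55 of the chromatin counts against 0.112% ± 0.015 of the cytoplasm counts (SD, n = 3 each), and the lowest chromatin library lay above every cytoplasm library. COL18A1, a basement membrane collagen, stood at 9696, 7526 and 7908 against 344, 269 and 264 CPM (log2 change 4.97). COL4A1, a chain of the collagen network of basement membranes, stood at 3667, 3420.4 and 3055 against 149, 127 and 105 CPM (log2 change 4.87). LAMA1, a laminin chain, stood at 3074, 3572 and 2959 against 189.8, 165 and 146 CPM (log2 change 4.39), and AGRN, a heparan sulfate proteoglycan, was higher by 4.34. In each of these genes the fractions were far apart and did not overlap. Together the matrix genes of the list, without FN1, made up 4.10% ± 0.34 of the chromatin counts and 0.267% ± 0.026 of the cytoplasm counts (SD, n = 3 each; exact permutation p = 0.1, two-sided, the smallest that 3 against 3 libraries can give). Their share was higher still in the nucleoplasm, at 5.58% ± 0.25, and was 4.99% ± 0.87 in whole nuclei, so matrix RNA was not confined to the chromatin pellet.

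**Figure D2:**
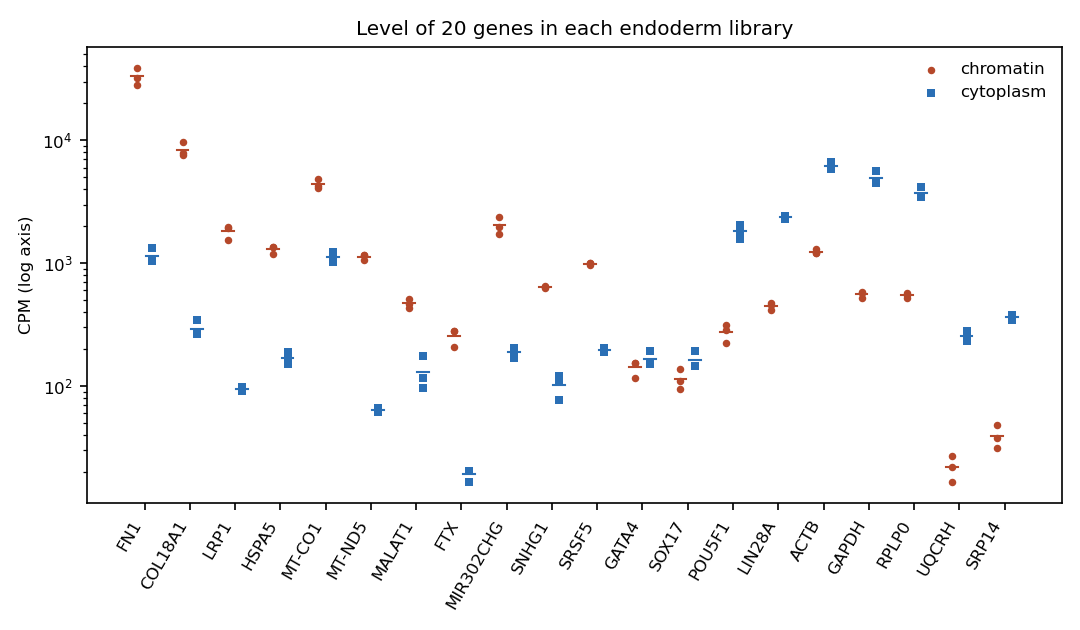
Level of 20 genes in each of the 3 endoderm chromatin libraries (circles) and the 3 cytoplasm libraries (squares), in CPM on a log axis; short lines are means. FN1, COL18A1 and LRP1 sit high in chromatin, RPLP0, UQCRH and SRP14 low, and the fractions overlap in GATA4.

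Most adhesion molecules and receptors were higher in chromatin too. Of 23 adhesion genes, 22 were higher in chromatin and 1, the integrin subunit ITGB5, was not called (0.37, adjusted p = 0.0891), with a median log2 change of 2.46. CDH1, the cadherin of epithelia, stood at 548, 574 and 499.9 CPM in chromatin and 75.6, 79.9 and 70.3 CPM in the cytoplasm (log2 change 2.98, SE 0.18, adjusted p = 2.05e-09). ITGA7, a laminin-binding integrin subunit, stood at 324, 348 and 401 against 15.6, 18.8 and 22.9 CPM (log2 change 4.36). Of 36 surface receptors, 32 were higher in chromatin and the other 4 (ACVR2B, BMPR1A, TGFBR2 and TGFBR1) were not called, with a median of 1.95. LRP1, a large endocytic receptor, stood at 1982, 1923 and 1529.9 against 91.4, 97.9 and 95.7 CPM (log2 change 4.39). FGFR1, a receptor of fibroblast growth factors, stood at 3311, 3718 and 3577 against 891, 806 and 814 CPM (log2 change 2.21). The fractions did not overlap in CDH1, ITGA7, LRP1 or FGFR1. ITGB5 was called under DESeq2 (0.42) and on TPM (0.79). On TPM 1 adhesion gene was called lower in chromatin. Of the surface receptors, 1 was called lower in a fit of the 6 libraries alone and 2 without the nucleus libraries.

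Genes of the ER's own machinery went both ways. Among 23 chaperones and folding enzymes, 15 were higher in chromatin and 1, MANF (-0.61), was lower, a call that was lost on TPM (-0.20), while 2 genes were lower with total counts, without chromatin replicate 1 and without the nucleus libraries, and the median log2 change was 1.16. HSPA5, the main ER chaperone, stood at 1352, 1345 and 1192 CPM in chromatin and 188, 169 and 149.6 CPM in the cytoplasm (log2 change 3.07, SE 0.18, adjusted p = 2.20e-09). HSP90B1 stood at 1071, 926 and 908 against 269, 257 and 227 CPM (log2 change 2.08), and CALR at 1140.5, 997 and 988 against 479, 409 and 435 CPM (log2 change 1.37). All 3 chaperones were higher in every chromatin library. Among 28 genes of ER targeting and translocation, 7 were higher (4 with upper-quartile scaling) and 14 lower, with a median of -0.64. The multi-pass channel SEC61A1 (1.20) and the oligosaccharyltransferase subunits STT3A (1.71) and RPN2 (1.46) were among the higher ones. SRP14, a small soluble subunit of the signal recognition particle, stood at 47.8, 37.6 and 31.4 against 379, 345 and 359.7 CPM (log2 change -3.08, SE 0.17, adjusted p = 9.79e-10), and SRP9, its partner, was lower by a log2 change of -2.23.

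Carriers and other membrane proteins were less uniform. Of 171 solute carriers outside the mitochondrial SLC25 family, 102 were higher in chromatin and 14 lower (9 on TPM; median log2 change 0.85). SLC3A2, the heavy chain of amino acid transporters, stood at 1133, 916 and 849 CPM in chromatin and 255, 238 and 246 CPM in the cytoplasm (log2 change 2.10). Its light-chain partner SLC7A5 overlapped between the fractions, with 1048, 1029.9 and 1001 against 1256, 1009 and 1039 CPM (log2 change 0.03, adjusted p = 0.928). SLC2A3, a glucose transporter, was higher in each chromatin library, at 2967, 3013 and 3356 against 1965, 1689.6 and 1303 CPM (log2 change 1.04). The 152 TMEM genes, a name for membrane proteins of unassigned function, were divided into 57 higher and 48 lower with a median of 0.01, which ran from -0.13 to 0.37 over the settings.

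Messages made inside mitochondria were higher in chromatin, and nuclear messages for the same complexes were mostly lower. All 13 mRNAs encoded by mitochondrial DNA were higher in chromatin, with a median log2 change of 2.10, and both mitochondrial rRNAs were too (MT-RNR1 1.79, MT-RNR2 1.47, added after their values were seen). MT-CO1, a cytochrome c oxidase subunit, stood at 4833, 4269.8 and 4089 CPM in chromatin and 1016, 1229.9 and 1133 CPM in the cytoplasm (log2 change 2.10, SE 0.35, adjusted p = 6.92e-05). MT-ND5, a complex I subunit, stood at 1157, 1069.6 and 1169 against 66.2, 63.2 and 61.4 CPM (log2 change 4.28, SE 0.30, adjusted p = 8.69e-09). MT-ND6, the only mRNA of the light strand, stood at 231, 194 and 228 against 34.7, 36.8 and 26.1 CPM (log2 change 2.87, SE 0.29, adjusted p = 3.83e-07). No cytoplasm library reached a chromatin library in any of the 13. The log2 changes of the rest were 2.10 for MT-ATP6, 2.93 for MT-ATP8, 1.25 for MT-CO2, 1.85 for MT-CO3, 1.60 for MT-CYB, 2.10 for MT-ND1, 2.01 for MT-ND2, 2.81 for MT-ND3, 1.32 for MT-ND4 and 2.46 for MT-ND4L. Mitochondrial genes took 1.41% ± 0.12 of chromatin counts and 0.436% ± 0.021 of cytoplasm counts, but 11.2% ± 0.88 of nucleoplasm and 11.6% ± 4.11 of nucleus counts (SD, n = 3 each). Nuclear copies of mitochondrial DNA share sequence with these genes, so their reads may not be told apart. What part carried-over mitochondria had in these or the other values was not tested.

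**Figure D3:**
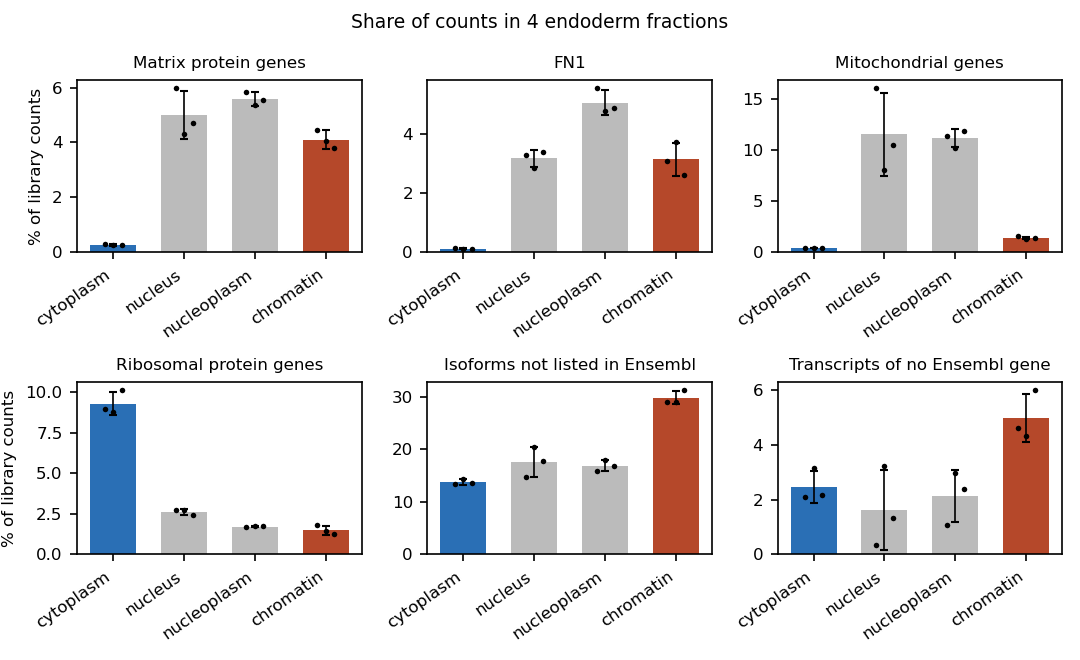
Share of all counts of a library in 6 classes for the 4 endoderm fractions; bars are means, error bars are SD over 3 libraries and points are libraries. Matrix and mitochondrial genes are lowest in the cytoplasm (0.267% and 0.436%), ribosomal protein genes are highest there (9.29%), and isoforms not listed in Ensembl are highest in chromatin (29.8%).

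Of 54 respiratory chain and ATP synthase subunits encoded in the nucleus, 49 were lower in chromatin and the other 5 (COX6A1, NDUFS1, CYC1, SDHA and NDUFS7) were not called, with a median log2 change of -2.28. UQCRH, a small subunit of complex III, stood at 27.0, 21.8 and 16.4 CPM in chromatin and 247, 232 and 279.5 CPM in the cytoplasm (log2 change -3.41, SE 0.19, adjusted p = 1.38e-09). ATP5F1B, the catalytic subunit of ATP synthase, stood at 302, 304 and 263 against 1066, 1123 and 1234 CPM (log2 change -1.85). Both were lower in every chromatin library. Of 77 mitochondrial ribosomal proteins, 69 were lower and 3 (MRPS25, MRPL32 and MRPS5) higher (1 on TPM), with a median of -1.77. The mitochondrial carriers of the SLC25 family were divided, with 10 of 40 higher and 16 lower and a median of -0.25 that turned to 0.10 on TPM. SLC25A5, an ADP/ATP carrier, was lower (68.7, 70.1 and 54.5 against 503, 475 and 505 CPM, log2 change -2.81) and SLC25A29, a carrier of basic amino acids, was higher (699, 701 and 779.7 against 124, 127 and 144 CPM, log2 change 2.59).

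Messages of the cytosolic machinery lay on the cytoplasm side. All 86 tested genes of cytosolic ribosomal proteins were lower in chromatin, with log2 changes from -3.38 to -1.06 and a median of -2.52. RPLP0, a stalk protein of the large subunit, stood at 571, 548 and 522 CPM in chromatin and 3473, 3448 and 4187 CPM in the cytoplasm (log2 change -2.63, SE 0.24, adjusted p = 1.20e-07). RPS4X, of the small subunit, stood at 134, 119 and 100.2 against 1282, 1294 and 1439 CPM (log2 change -3.38, SE 0.18, adjusted p = 7.30e-10). These genes took 1.49% ± 0.28 of chromatin counts and 9.29% ± 0.72 of cytoplasm counts (SD, n = 3 each; exact permutation p = 0.1, two-sided, the smallest possible). Of 36 translation factors, 31 were lower and 1, the scaffold EIF4G1 (0.84), was higher, with a median of -1.58. EEF1A1, which brings aminoacyl-tRNA to the ribosome, stood at 2811, 2908 and 2468 against 20749, 21478 and 22212 CPM (log2 change -2.84). EIF3I, a small subunit of initiation factor 3, stood at 20.3, 23.8 and 25.2 against 254, 241 and 285 CPM (log2 change -3.36). The cytoplasm libraries were the higher ones throughout in the 4 genes that were lower.

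Glycolysis, the cytosolic CCT chaperonin, the proteasome core and the cytoskeleton lay on the same side. Of 17 glycolytic genes, 12 were lower in chromatin and 1, the neuronal enolase ENO2, was higher (331, 377 and 421 against 162, 166 and 191 CPM, log2 change 1.25; 3 genes higher on TPM), with a median of -2.04. GAPDH stood at 576, 587 and 520.0 CPM in chromatin and 4505, 4690.1 and 5662 CPM in the cytoplasm (log2 change -3.01, SE 0.26, adjusted p = 6.74e-08), while LDHA, lactate dehydrogenase A, stood at 45.0, 40.0 and 41.4 against 350.3, 546 and 583 CPM. The 4 glycolytic genes that were not called were HK2 and the phosphofructokinases PFKL, PFKP and PFKM. All 14 subunits of the 20S proteasome core (median -2.41), all 8 of the CCT chaperonin (median -1.93) and all 18 actin and tubulin group genes (median -2.13) were lower in chromatin. ACTB stood at 1206, 1300.0 and 1209 against 6032, 5839 and 6707 CPM (log2 change -2.19). TUBA1B stood at 442, 521 and 435 against 2839, 2808 and 3359.6 CPM (log2 change -2.56), and PSMB6, a catalytic proteasome subunit, fell the furthest of its list (-3.01). Their groups lay well apart.

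Splicing regulators were split within families. Of 20 hnRNP genes, which encode abundant pre-mRNA binding proteins, 17 were lower in chromatin and HNRNPH1 and HNRNPDL were higher (1 gene higher with total counts), with a median log2 change of -1.31. HNRNPA1 stood at 695, 754 and 672 CPM in chromatin and 3774, 3715 and 3622 CPM in the cytoplasm (log2 change -2.26, SE 0.16, adjusted p = 8.31e-09). HNRNPH1 stood at 956, 912 and 968 against 413, 428 and 409 CPM (log2 change 1.31, SE 0.28, adjusted p = 6.22e-04). The chromatin libraries were all below the cytoplasm libraries for HNRNPA1 and all above them for HNRNPH1. Of 16 SR proteins and the CLK kinases that phosphorylate them, 7 were higher (SRSF5, CLK2, CLK3, SRSF6, SRSF11, CLK1 and SRSF2) and 5 lower (SRSF9, SRSF3, TRA2B, SRSF8 and SRSF7), with a median of 0.15. SRSF5 stood at 996, 957 and 996 against 194, 204 and 189 CPM (log2 change 2.46, SE 0.25, adjusted p = 4.37e-07), and SRSF3 at 137, 135 and 149 against 534, 627 and 616 CPM (log2 change -1.95, SE 0.14, adjusted p = 9.00e-09). The fractions did not overlap in either gene.

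The isoforms differed as well as the levels. The deposited tables hold transcripts assembled from the reads, and isoforms of Ensembl genes that match no Ensembl transcript took 29.8% ± 1.23 of chromatin counts and 13.8% ± 0.53 of cytoplasm counts (SD, n = 3 each), against 16.9% ± 1.08 in the nucleoplasm. Of 2753 genes with both kinds of isoform and at least 100 counts in each of the 6 libraries, the unlisted share was higher in every chromatin library in 1112 (40.4%) and in every cytoplasm library in 262 (9.52%). For HNRNPH1 the unlisted share was 95.9, 96.8 and 95.8% in the chromatin libraries and 24.4, 23.7 and 21.1% in the cytoplasm libraries. For SRSF5 it was 79.2, 87.5 and 84.8% against 30.7, 42.4 and 39.4%, and for CLK2, picked after its values were seen, 74.9, 82.4 and 75.1% against 30.0, 19.7 and 31.5%. In these 3 splicing genes, all higher in chromatin as a whole, the 2 fractions did not overlap. They do not stand for their lists. The unlisted share was higher in every chromatin library in 4 of 10 hnRNP genes and in every cytoplasm library in 1. For SR and CLK genes these counts were 3 and 0 of 6, beside 40.4% and 9.52% of all genes. The share could also differ where the gene's level was not called: SAT1, a polyamine acetyltransferase, had 82.1, 89.3 and 85.9% against 3.26, 3.52 and 2.12% with a log2 change of 0.02 in its level (adjusted p = 0.941; -0.73 on TPM). FN1 showed the opposite combination, with a large change in level and unlisted shares of 3.86, 3.70 and 3.18% and 4.82, 2.91 and 3.63% that overlapped. EVL, an actin regulator, had the larger unlisted share in the cytoplasm (20.4, 19.5 and 20.7% against 89.4, 90.6 and 91.0%), and like SAT1 it was picked after its values were seen. A count divided among isoforms is less certain than a gene's sum, and the files do not say which unlisted isoforms retain introns.

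Large regulators of chromatin were higher on the chromatin side. Of 30 coactivators, remodellers and histone methyltransferases, 25 were higher and the other 5, among them SMARCA4, SMARCA2 and NCOR1, were not called, with a median log2 change of 1.16. KMT2A, a histone H3 methyltransferase, stood at 156, 217 and 141 CPM in chromatin and 32.2, 31.9 and 26.7 CPM in the cytoplasm (log2 change 2.64, SE 0.20, adjusted p = 2.38e-08). ANKRD11, a corepressor scaffold, stood at 616, 589 and 555 against 128, 139 and 146 CPM (log2 change 2.22), and CHD4, the NuRD remodeller, at 799.9, 996 and 878 against 387, 396 and 393 CPM (log2 change 1.32). All 3 were higher in each chromatin library.

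These are long genes with many exons, and both features moved with the change. Protein-coding genes were divided into 4 groups, of 3412, 2667, 2600 and 2618 genes, by the largest exon number of a GENCODE 29 transcript. The median log2 change was -0.69 in the group with the fewest exons, -0.35 and 0.09 in the middle groups and 0.80 in the group with the most (17 to 363 exons, n = 2618, 58.9% higher in chromatin). Divided by length of the longest transcript, the medians were -1.09, -0.19, 0.17 and 0.57, and by genomic span -0.46, -0.10, 0.01 and 0.25. The median exon number was 39 for matrix genes, 36.5 for the chromatin regulators and 6 for ribosomal protein genes. Among genes with 17 or more exons, 28 matrix genes had a median change of 4.33, 13 adhesion genes 3.24, 23 receptors 2.28 and 29 chromatin regulators 1.11, beside 0.80 for all genes of that group. The part of exon number or length in any list's change was not tested beyond these values.

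**Figure D4:**
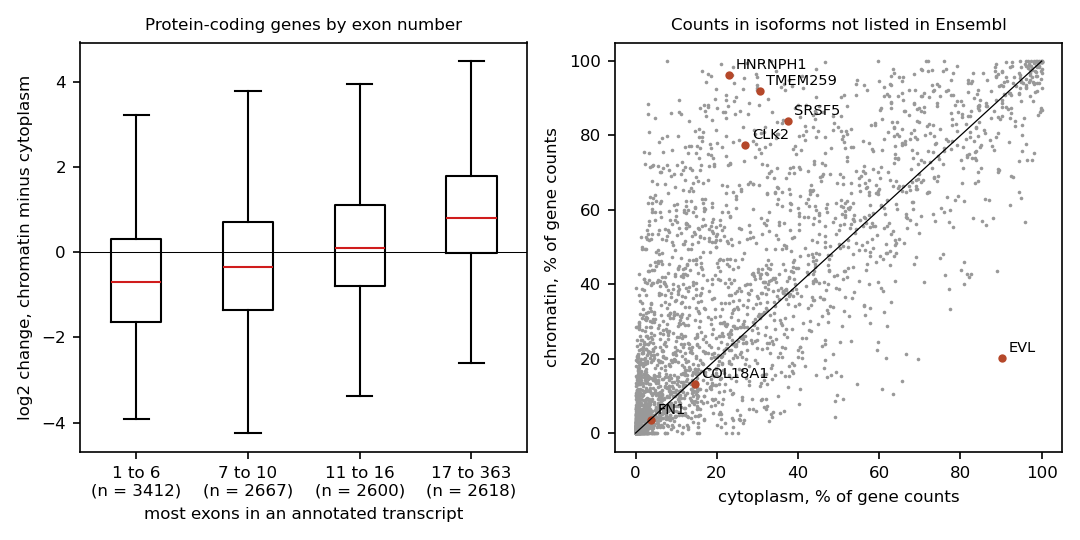
Left, log2 change (chromatin minus cytoplasm) of protein-coding genes in 4 groups of exon number; boxes are interquartile ranges, red lines are medians, and whiskers reach at most 1.5 box lengths. Right, percent of each gene's counts in isoforms not listed in Ensembl, mean of 3 libraries per fraction, for 2753 genes; HNRNPH1, SRSF5 and CLK2 lie above the line of equal shares and EVL below it.

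Genes of endoderm identity had no common direction. Of 27 tested, 9 were higher in chromatin, 9 lower (5 on TPM) and 9 not called, and the median log2 change of 0.00 ran from -0.14 to 0.22 over the settings. SOX17, which sets the endoderm programme, stood at 137, 94.1 and 110.1 CPM in chromatin and 193, 146 and 145 CPM in the cytoplasm (log2 change -0.37, adjusted p = 0.0602). GATA4 stood at 155, 116 and 154 against 192, 150.3 and 157 CPM (log2 change -0.10, adjusted p = 0.583). Neither difference passed the threshold, though SOX17 passed it without chromatin replicate 1 (-0.54), with total counts (-0.51), with upper-quartile scaling (-0.51), with the replicate block (-0.38) and in fits of the 6 libraries alone (-0.42) or without the nucleus libraries (-0.47). Among transcription factors, FOXA2 (-0.54), GATA6 (-0.71), EOMES (-0.59), OTX2 (-1.17), GATA3 (-0.35), FOXA3 (-1.43) and MIXL1 (-1.98) were lower in chromatin, as was the apolipoprotein APOA2 (-1.60). The FOXA2 call was lost without chromatin replicate 1 (-0.51), chromatin replicate 2 (-0.49) or cytoplasm replicate 1 (-0.33), and that of EOMES without cytoplasm replicate 1 (-0.41). On TPM the calls of FOXA2 (-0.11), GATA6 (-0.25) and EOMES (-0.24) were lost and GATA3 turned to 0.10. The GATA3 call was also lost with DESeq2's size factors (-0.30) and without chromatin replicate 1 (-0.33), chromatin replicate 2 (-0.34) or cytoplasm replicate 1 (-0.26). The higher members were FN1, LEFTY1 (2.98), KIT (2.80), CDH2 (2.27), CXCR4 (1.91), DKK1 (1.10), NODAL (0.98), PRDM1 (0.77) and LHX1 (0.74), and the LHX1 call was lost without chromatin replicate 2 (0.53). CXCR4, the chemokine receptor used to sort endoderm, stood at 15.2, 14.6 and 12.3 against 4.84, 4.21 and 3.14 CPM, and KIT, a receptor tyrosine kinase, at 107, 109 and 92.1 against 17.8, 16.9 and 13.6 CPM. Both receptors were higher in each chromatin library. CER1 (-0.02), HHEX (-0.22), FRZB (0.00), FGF17 (0.08), BMP2 (0.23), GSC (0.77) and LEFTY2 (0.56) were not called, but GSC passed without cytoplasm replicate 2 (1.04), with DESeq2's size factors (0.83) and with DESeq2 (0.83), and BMP2 passed on TPM (0.67).

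Within the Nodal and Activin pathway, which the added Activin A drives, 9 of 20 genes were higher in chromatin and 3 (TDGF1, TGIF2 and CFC1) lower, with a median log2 change of 0.53; the 3 became 5 in a fit of the 6 libraries alone and 6 without the nucleus libraries. FST, which binds and blocks Activin, stood at 251, 235 and 241 CPM in chromatin and 127, 97.0 and 85.0 CPM in the cytoplasm (log2 change 1.37, SE 0.15, adjusted p = 9.96e-07). NODAL, the ligand, stood at 27.2, 17.7 and 20.2 against 13.8, 11.5 and 11.1 CPM, and TDGF1, its co-receptor, at 94.9, 96.6 and 89.7 against 237, 331 and 299.5 CPM (log2 change -1.49, SE 0.15, adjusted p = 5.13e-07). The chromatin libraries were higher throughout for FST and NODAL and lower for TDGF1.

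Pluripotency genes were on the cytoplasm side. Of 12 tested, 11 were lower in chromatin (7 on TPM) and SALL4 (-0.21) was not called, with a median of -1.28; SALL4 was called lower with upper-quartile scaling (-0.34) and without the nucleus libraries in the fit (-0.31). POU5F1, the OCT4 gene, stood at 316, 285 and 225 CPM in chromatin and 1577, 1808 and 2043 CPM in the cytoplasm (log2 change -2.58, SE 0.18, adjusted p = 1.13e-08). LIN28A, a binder of let-7 precursors, stood at 412, 453 and 471 against 2402, 2439.8 and 2294 CPM (log2 change -2.29, SE 0.18, adjusted p = 2.74e-08). Each chromatin library was below each cytoplasm library. Among genes of the other germ layers, NES (1.68), KDR (2.83) and PDGFRA (2.75) were higher in chromatin and HAND1 (-1.49) was lower, while PAX6, OTX1, ZIC2, TBXT, TBX6 and FOXF1 were not called; on TPM 2 ectoderm and 4 mesoderm markers were higher.

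Cell cycle, histone and response genes showed mixed or cytoplasmic patterns. Of 16 replication licensing genes, 9 were lower in chromatin and MCM7 and CDC45 higher (median -0.47); the 9 became 14 without the nucleus libraries in the fit and 4 on TPM. CDC6, which loads the helicase, stood at 27.5, 27.1 and 25.5 CPM in chromatin and 103, 119.6 and 105 CPM in the cytoplasm (log2 change -1.90, SE 0.15, adjusted p = 4.22e-08). Of 20 mitosis genes, 12 were lower and ASPM, MKI67 and CENPF higher (5 higher on TPM; median -0.70). MKI67 stood at 323, 351 and 279.9 against 104, 94.8 and 98.4 CPM (log2 change 1.82), and CCNB1, the mitotic cyclin, at 91.9, 96.8 and 86.7 against 218, 214 and 227 CPM (log2 change -1.13), so these proliferation genes lay on opposite sides. Of 20 replication-dependent histone genes tested of 39 listed, 16 were lower, with a median of -1.90, and H2BC12 fell the furthest (-4.91). The 39 genes together held a mean of only 21.7 CPM in chromatin, so the size of a fall is not exact for members near the floor. Histone genes are also near-identical copies that share reads, so single values are uncertain. Immediate early genes were split into 8 higher and 7 lower (2 on TPM) of 20 (median 0.29), with FOS at 34.8, 33.6 and 32.5 against 9.57, 11.1 and 9.93 CPM (log2 change 1.85) and FOSL1 lower (-1.89). Genes of cholesterol metabolism were split into 7 higher (11 on TPM) and 9 lower of 23, and their median of 0.13 went to 0.00 when scaled by total counts. In that list the thiolase ACAT2 fell the most (33.5, 34.5 and 37.7 against 209, 191 and 187 CPM, log2 change -2.34).

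The gene classes had different medians. Of 11297 protein-coding genes, 4012 were higher in chromatin and 4250 lower, with a median log2 change of -0.04 that turned to 0.01 with DESeq2 and to 0.28 on TPM. Of 218 pseudogenes, 123 were higher and 56 lower (median 1.33), while pseudogenes of ribosomal proteins were mostly lower, with 6 of 26 higher (3 on TPM) and 17 lower (median -1.90). Near-identical pseudogenes share reads with their parent genes, so these values are uncertain. Zinc finger genes named ZNF had 138 of 354 higher and 60 lower (93 without the nucleus libraries in the fit, 31 on TPM; median 0.30). Antisense genes had 81 of 174 higher and 33 lower (median 0.77), and long intergenic RNAs named LINC 42 of 90 higher and 21 lower (median 0.78). Divergent transcripts, which start next to a coding gene in the opposite direction, had 20 of 83 higher and 16 lower (9 on TPM), with a median of 0.02 that ran from -0.12 to 0.19. LINC02593, a LINC RNA, stood at 373 ± 40.2 CPM in chromatin and 17.7 ± 1.99 CPM in the cytoplasm (SD, n = 3 each; log2 change 4.52), and SLC9A3-AS1, an antisense RNA, at 473, 446 and 562 against 18.9, 17.4 and 20.4 CPM (log2 change 4.84). Both were higher in each chromatin library.

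The same contrast was measured in undifferentiated hPSC, with 3 chromatin and 3 cytoplasm libraries, and the difference between both contrasts was tested in a single edgeR fit of 11599 genes. Of these, 4304 (37.1%) differed, 1559 (13.4%) with a change more to the chromatin side in endoderm and 2745 (23.7%) with a change more to the cytoplasm side. The median difference over all genes was -0.21, and the split of calls depended on scaling: 36.2% of calls were on the chromatin side in this fit, 27.1% with total counts, 49.2% with DESeq2 and 15.8% on TPM. Each cell type was counted on its own transcript assembly, so assembly and cell type cannot be told apart. Leaving out hPSC chromatin replicate 3 gave 5648 calls and leaving out replicate 2 gave 3542.

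Matrix genes were further to the chromatin side in endoderm. Of 30 matrix genes tested in both cell types, 19 had a larger change in endoderm and 1 a smaller one, and the list's median was 4.27 in endoderm and 3.13 in hPSC. The 19 became 16 with total counts and 24 with DESeq2, and the 1 became 3 on TPM. FN1 stood at 223, 205 and 241 CPM in hPSC chromatin and 13.7, 20.3 and 22.0 CPM in hPSC cytoplasm, a log2 change of 3.58, and the endoderm change exceeded it by 1.43 (SE 0.26, adjusted p = 7.86e-04). COL18A1 exceeded its hPSC change by 1.66 (adjusted p = 2.53e-04). Mitochondrial mRNAs went the other way, with medians of 2.12 in endoderm and 3.79 in hPSC, and 9 of 13 had a smaller change in endoderm. MT-ATP6 stood at 1323, 1059 and 970.4 CPM in hPSC chromatin and 42.0, 39.0 and 68.0 CPM in hPSC cytoplasm (difference -2.37, adjusted p = 5.51e-05). In hPSC too, every chromatin library lay above every cytoplasm library.

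Pluripotency genes went both ways in hPSC and were on the cytoplasm side in endoderm. Of 12 tested in hPSC, 5 were higher in chromatin and 2 lower. Their median log2 change was 0.06 in hPSC and -1.25 in endoderm, and 9 of 12 had a lower change in endoderm. POU5F1 stood at 1197, 1380.3 and 1207 CPM in hPSC chromatin and 3613, 2964 and 2817 CPM in hPSC cytoplasm (log2 change -1.33), and the difference was -1.24 (SE 0.24, adjusted p = 0.00151). LIN28A stood at 1801, 1916 and 2064 and 1109, 2527 and 2570.1 CPM in hPSC (log2 change -0.09), with a difference of -2.17 (adjusted p = 1.80e-04). For both genes the hPSC change was closer to 0 than the endoderm change. Lists of the cellular machinery shifted the same way, as did the median of all genes: 48 of 84 ribosomal protein genes, 15 of 18 actin and tubulin group genes, 12 of 14 proteasome subunits, 27 of 54 nuclear respiratory chain subunits and 21 of 28 ER translocation genes had a lower change in endoderm. On TPM the ribosomal protein count was 76 and the respiratory chain count 45, and without hPSC cytoplasm replicate 1 the ribosomal protein count was 74. The ER translocation count fell to 14 with DESeq2 and rose to 27 without hPSC chromatin replicate 3. For ER translocation the median was 0.29 in hPSC and -0.62 in endoderm. SRSF5 was an opposite case, with 272, 278 and 378 CPM in hPSC chromatin, 312, 219 and 230.1 CPM in hPSC cytoplasm and a difference of 2.21 (SE 0.25, adjusted p = 4.31e-05). MALAT1 was lower in chromatin in hPSC (log2 change -0.85), with 169, 150.3 and 96.2 CPM in chromatin and 239, 278 and 226 CPM in the cytoplasm, and higher in endoderm (difference 2.87, adjusted p = 3.98e-05). FTX was higher in chromatin in both, by 1.02 in hPSC, and the endoderm change exceeded that by 2.87 (adjusted p = 3.12e-05). MALAT1 and FTX were the only 2 called of 9 nuclear lncRNAs tested for this difference, whose median difference was 0.60. Among the 8 that were also tested in the endoderm fit, the median difference was 0.37. On TPM 2 of 7 had a larger and 2 a smaller change in endoderm, and the median difference turned to -0.31.

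**Figure D5:**
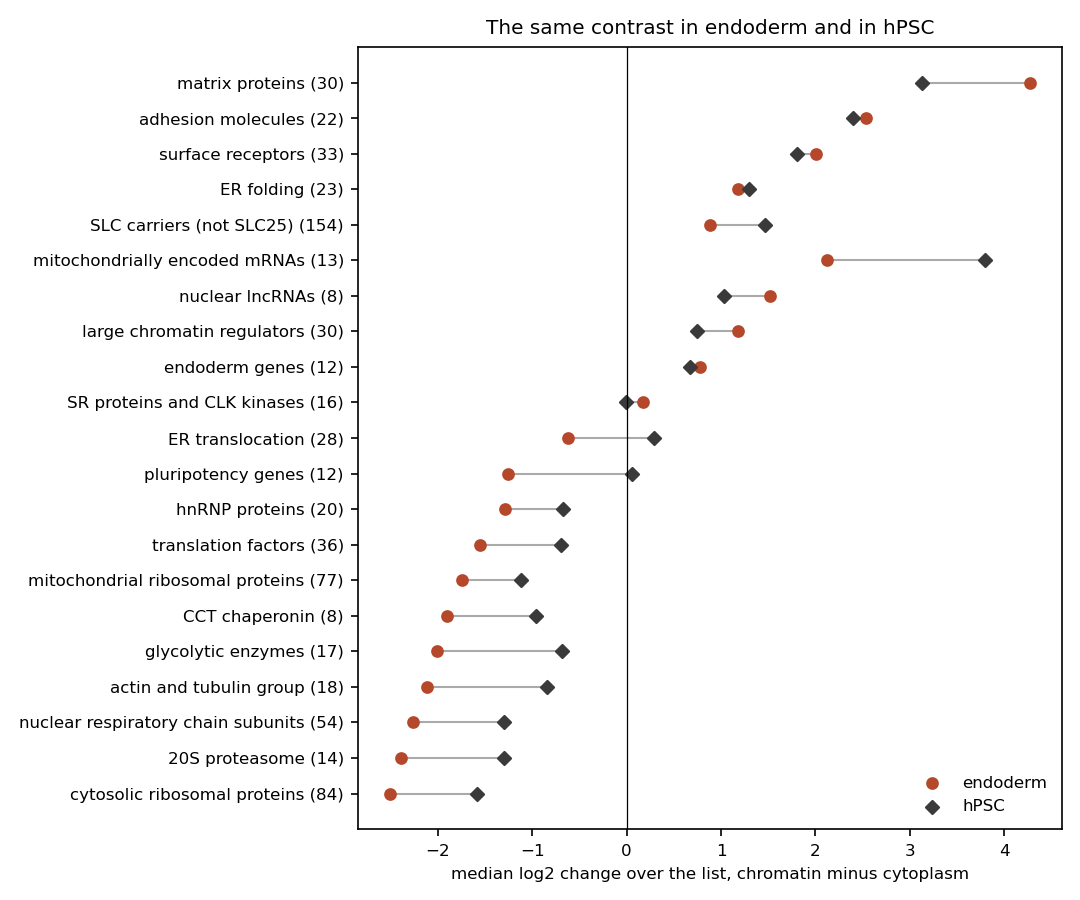
Median log2 change (chromatin minus cytoplasm) of each gene list in endoderm (circles) and in hPSC (diamonds), from a single fit on genes tested in both; the number of genes is in parentheses. Matrix genes lie further right in endoderm (4.27 against 3.13), mitochondrial mRNAs further left (2.12 against 3.79), and pluripotency genes move from 0.06 to -1.25.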

How the data were processed

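The authors deposited expected counts and TPM values for each assembled transcript, made with STAR and RSEM on hg38 per the submitters' processing notes; versions and filters are not given in the sources used here. The deposited counts are whole numbers. Columns coded "Nei" were read as nucleus libraries. Counts were summed per Ensembl gene, and rows without an Ensembl gene (2.09% to 5.98% of counts in the 6 libraries) were left out. Gene types came from GENCODE 29. The main test was edgeR's (4.0.16, in R 4.3.3) after filterByExpr (minimum count 10) and TMM scaling: all 12 endoderm libraries in the fit, quasi-likelihood F test, two-sided, Benjamini-Hochberg adjustment; the difference from hPSC used 12 libraries and genes listed in both tables. SE is the log2 change divided by the square root of F. Isoform shares and figures used Python 3.11.15 and pandas 2.3.3. Alternatives used limma 3.58.1 on log2(TPM + 1), DESeq2 1.42.0, other scalings and left-out libraries. On simulated counts for the main comparison (12681 genes), 66% of 2-fold and 98% of 4-fold changes were recovered. For the difference from hPSC (11599 genes), 27% and 92% were recovered. Each simulation changed 100 well-counted genes by each fold, up and down in equal number. In the data 73% of genes were called in the main comparison, so these rates do not give the recovery in the data. Named genes were the 12 largest rises and falls at 10 CPM or more without overlap, all tested members of 3 lists, and up to 4 abundant plus the most changed members of the others, other genes being marked or completing a small count. A few list members are counted but not reported here by name. Members and lists were chosen with earlier results of these data known.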

Additional observations from a re-analysis of the deposited data

Results flagged for a closer look

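The contrast of chromatin with cytoplasm differed between endoderm and hPSC in 4304 genes by the test of the difference itself, and the genes below have the largest differences, endoderm minus hPSC on the log2 scale, among those with at least 10 CPM in 1 group. Each cell type has its own assembly, and what part that had in these values was not tested. The differences were -11.20 for U2AF1, -7.58 for SNORD116-24, -6.91 for ENSG00000273590, -6.41 for ENSG00000280614 and -6.28 for TATDN1 on the cytoplasm side. On the chromatin side they were 7.22 for ENSG00000278996, 6.42 for SLX1A, 6.03 for HAPSTR1, 5.80 for OVCH2 and 5.51 for ZNF135. U2AF1 stood at 68.1, 61.7 and 85.7 CPM in hPSC chromatin and 57.3, 21.9 and 35.6 CPM in hPSC cytoplasm, while endoderm chromatin held 0 in all 3 libraries. The SLX1A difference fell to 0.21 without endoderm chromatin replicate 2 and was 0.25 on TPM, where the HAPSTR1 difference was 0.51 and no longer called, SNORD116-24 turned to 0.013 and ZNF135 to -1.35. SLX1A was not called in 8 of the 12 fits that left out 1 library; it was called without endoderm chromatin replicate 1 or 3, hPSC chromatin replicate 3 or hPSC cytoplasm replicate 3. SLX1A and U2AF1 have near-identical copies in the genome and ENSG00000280614 is 1 of 3 genes with identical annotated transcripts, so their counts may be divided differently in each assembly. Fitted changes of genes near 0 counts depend on the prior count and give no bound.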

How the results depend on the processing

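Under other normalizations, filters, tools and left-out libraries, 8725 to 10099 genes were called between chromatin and cytoplasm, and 51.7% of calls were higher in chromatin, against 62.2% on TPM, 47.3% with total counts, 47.4% with upper-quartile scaling, 49.7% in a fit of the 6 libraries and 48.2% without the nucleus libraries. Genes called both in edgeR's fit and in another had the same sign, except on TPM (7717 of 7726). For the difference from hPSC the count ran from 3542 to 5648, and 2613 genes also passed 2-fold. On TPM, SNORD116-24 turned to 0.013, ZNF135 to -1.35, SAT1 to -0.73 and GATA3 to 0.10. Chromatin minus cytoplasm shares on TPM were 0.595 points for FN1, 1.18 for matrix genes, 2.50 for mitochondrial genes, -19.3 for ribosomal protein genes, 8.01 for lncRNAs, -22.3 for coding genes, -1.03 for pseudogenes (0.227 on counts), 18.8 for unlisted isoforms, -29.4 for listed isoforms and 10.5 for transcripts of no Ensembl gene. Replicate numbers are shared between fractions. To look for pairing, each gene's deviation from the mean of its fraction was correlated between chromatin and cytoplasm libraries. These deviations correlated at 0.045 to 0.068 for libraries of the same number and at -0.041 to -0.006 for different numbers. Deviations were centred over the 3 libraries of a fraction, so positive values for the same number go with negative ones for different numbers. These values therefore cannot settle whether the numbers are pairs, and the main fit did not treat them as such. With the replicate block 9059 genes were called and 4041 for the difference from hPSC. By these deviations each chromatin library correlated best with the cytoplasm library of its number, a hint from the data and not from the design. The levels themselves did not show this, since chromatin replicates 2 and 3 correlated best with cytoplasm replicate 1. Leaving the nucleus libraries out of the fit was chosen after seeing the data. Changes of genes near the floor of 3 counts are limited by depth, most in chromatin replicate 2.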
